A study of Mus musculus with 14 samples.

Results

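Mouse oocytes with a surrounded nucleolus (SN) were compared with oocytes with a non-surrounded nucleolus (NSN), both overexpressing Rnaseh1. The comparison rests on 4 of the 14 libraries of the series, 2 SN and 2 NSN. It covers the 12736 of 35389 gene identifiers of the deposited table whose value reached 1 TPM in at least 2 of its 8 libraries. TPM is a gene's share of all transcripts in a library, corrected for gene length and scaled to the same total in each. The other 4 libraries of that table are SN and NSN oocytes overexpressing the red fluorescent protein mCherry, 2 of each, and serve as the control. The remaining 6 libraries, with no oocyte stage in their labels, were not used here. The labels give no strain, age, form or amount of the overexpression agent, or number of oocytes per library, and leave unsaid whether replicates share animals or pools.

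The terms NSN and SN describe the chromatin of the fully grown oocyte. In NSN oocytes the chromatin is spread through the nucleus and transcription is active. In SN oocytes the chromatin forms a ring around the nucleolus, transcription is largely silent, and the cell lives on stored messenger RNA, so its RNA pool changes mainly through decay and translation control. Rnaseh1 encodes ribonuclease H1, which cuts the RNA strand of RNA:DNA hybrids. Such hybrids, called R-loops when they displace the other DNA strand, form where a nascent transcript pairs with its template. In bulk libraries fewer cells of a type and less RNA per cell cannot be told apart, and a share can move because other transcripts moved.

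All 15 oocyte markers examined were at 1 TPM or above in each of the 8 libraries, with sums of 23252 to 35953 TPM. The sums hide differences between members. Dppa3 held 9862 of 28031 TPM in NSN Rnaseh1 replicate 1 and 21364 of 28585 TPM in replicate 2. Mos stood at 313 TPM in replicate 1 and 4.91 TPM in replicate 2. Of 20 granulosa and cumulus cell markers, 11 to 15 were listed at 0 per library, among them Amh, Foxl2 and Inha in all 8, and their summed level was 26.9 to 58.1 TPM. Most of that sum was Cyp19a1, the aromatase, at 13.0 to 46.1 TPM, and Nr5a2 stood at 4.20 to 7.95 TPM and Kitl at 0.83 to 6.64 TPM. The 20 markers of theca, stroma, endothelium and blood summed to 6.55 to 30.9 TPM, with Pecam1 at 2.81 to 25.9 TPM. NSN Rnaseh1 replicate 2 stood apart from the other libraries. It had 10036 genes at 1 TPM or above, against 10572 to 11811 in the others, and its 100 most abundant genes held 43.0% of all TPM, against 30.1% to 35.2%. Across genes it correlated at r = 0.865 with NSN Rnaseh1 replicate 1 and at 0.925 and 0.912 with the SN Rnaseh1 libraries. NSN Rnaseh1 replicate 1 correlated at 0.965 and 0.969 with the NSN mCherry libraries. SN mCherry replicate 2 stood apart in the opposite direction, at r = 0.762 with NSN Rnaseh1 replicate 2 and 0.908 with its own partner. These correlations describe the libraries and are across genes, which are not independent. Results are therefore given with and without NSN Rnaseh1 replicate 2.

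Rnaseh1 (ENSMUSG00000020630.9, chromosome 12, 28649602 to 28659589, plus strand, GRCm38) differed in level between the stages compared. It stood at 745 and 229 TPM in NSN replicates 1 and 2 and at 1361 and 1083 TPM in SN replicates 1 and 2. With mCherry it lay between 81.0 and 137 TPM in all 4 libraries. The groups did not overlap, and the SN mean of 1222 ± 196 TPM (SD, n = 2) was 2.51 times the NSN mean of 487 ± 365 TPM (SD, n = 2). The SN mean was 1.64 times the level of NSN replicate 1 and 5.34 times that of NSN replicate 2. On the log2(TPM + 1) scale the difference was 1.55 (SE 0.57), with limma's adjusted p of 0.97 over all genes. The exact two-sided permutation test gave p = 0.33, the smallest that 2 against 2 libraries allow. Without NSN replicate 2 the difference was 0.70 and without NSN replicate 1 it was 2.40. The Rnaseh1 dose of these SN libraries thus stood above that of the NSN libraries, and dose and stage cannot be told apart in any result of this comparison. Supt6, a histone chaperone and elongation factor that other oocytes of the series overexpressed, stood at 3.82 and 0.72 TPM in NSN and 1.97 and 1.32 TPM in SN oocytes with Rnaseh1.

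**Figure D1:**
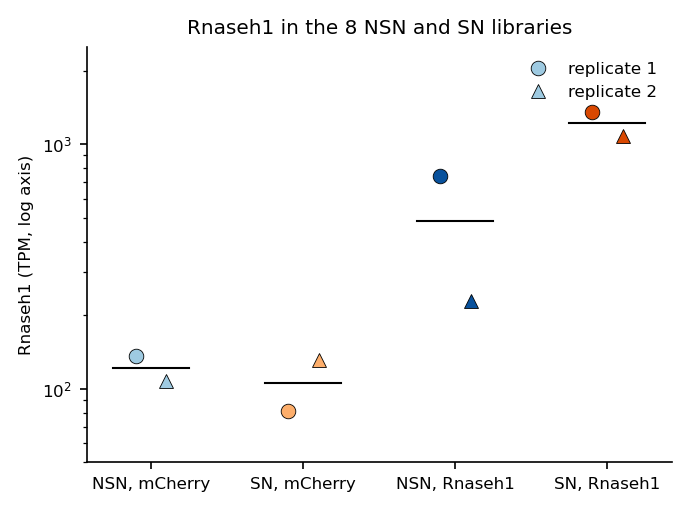
Rnaseh1 level in TPM (log axis) in the 8 libraries by group, with replicate 1 as circles, replicate 2 as triangles and group means as lines. Both SN Rnaseh1 libraries (1361 and 1083 TPM) lie above both NSN Rnaseh1 libraries (745 and 229 TPM), and the 4 mCherry libraries lie at 81.0 to 137 TPM.

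Across all genes, limma called 0 genes different between SN and NSN oocytes with Rnaseh1 at an adjusted p under 0.05, with a smallest adjusted p of 0.36. An unadjusted p under 0.05 was found for 584 genes, against 637 expected with no difference. Of these, 283 (2.22% of genes tested) stood higher in SN and 301 (2.36%) stood lower. Both SN libraries lay above both NSN libraries for 1792 genes (14.1%) and below both for 1590 (12.5%). The median log2 difference was 0.02 and the median SE 0.529. The gene with the smallest p was the antisense gene model Gm13008, at 10.7 and 12.3 TPM in NSN and listed at 0 in both SN libraries, with an adjusted p of 0.36. Without SN replicate 2 the counts at an unadjusted p under 0.05 became 123 and 127, and without SN replicate 1 they became 175 and 239.

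Leaving out NSN replicate 2 turned the balance of the comparison towards lower values in SN. The median of all genes became -0.28, and an unadjusted p under 0.05 was found for 345 genes higher (2.71%) and 1111 lower (8.72%), again with 0 past the adjusted threshold. Median centring and quantile normalization, which bring the libraries to a common level, moved this median to -0.04 and 0.03. After removal of the GC trend it was -0.30. Both SN libraries lay above the remaining NSN library for 3213 genes (25.2%) and below it for 6848 (53.8%). The lone NSN library is here, and in the fit without NSN replicate 1 below, assumed to vary like the other groups. The replicate difference had an SD across genes of 1.28 for NSN Rnaseh1 and 0.69 for SN Rnaseh1. For NSN and SN mCherry the SD was 0.62 and 1.05. Both fits leave out the widest of these spreads, so their p-values may be too small. Leaving out NSN replicate 1 instead moved the median to 0.33, and limma called 97 genes higher (0.762%) and 5 lower (0.0393%), with 13.6% and 3.53% of genes at an unadjusted p under 0.05. The SN libraries then lay above the remaining NSN library for 54.9% of genes and below it for 24.9%. The 5 lower genes were Ms4a10, Pnrc2, Deup1, Cspp1 and Gm13008. In 96 of the 97, NSN Rnaseh1 replicate 2 was the lowest of the 8 libraries, and 71 of the 97 were lower in SN when set against NSN replicate 1. Sdhd, a subunit of succinate dehydrogenase chosen here after its values were seen, shows the pattern. It stood at 271 and 7.73 TPM in the NSN replicates and 151 and 162 TPM in the SN libraries.

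The direction also varied with transcript GC content, known for 12360 of the genes. With NSN replicate 2 left out, and genes cut into 10 equal bins by GC content, the poorest bin had a median difference of 0.16 and the richest one of -0.82. With NSN replicate 1 left out these values were 0.02 and 0.59, and with all libraries 0.09 and -0.08. Across genes the rank correlation with GC content was -0.41 for the difference between the NSN Rnaseh1 replicates and -0.10 for that between the SN Rnaseh1 replicates. It was -0.04 for the NSN mCherry and 0.40 for the SN mCherry replicates. The stage difference with Rnaseh1 correlated with GC content at -0.10, at -0.37 without NSN replicate 2 and at 0.22 without NSN replicate 1. With mCherry the value was 0.25. Genes with a known GC content were also refitted after removal of the GC trend. For genes described below, all libraries then gave 2.67 in place of 2.69 for Mcmbp and -2.03 in place of -2.11 for Cables1. Wdr61 stayed at -1.83. Without NSN replicate 2 some values moved further, from 1.68 to 1.27 for Serbp1 and from -1.67 to -2.08 for Eif1a. Whether GC content caused the difference of any gene was not tested.

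**Figure D2:**
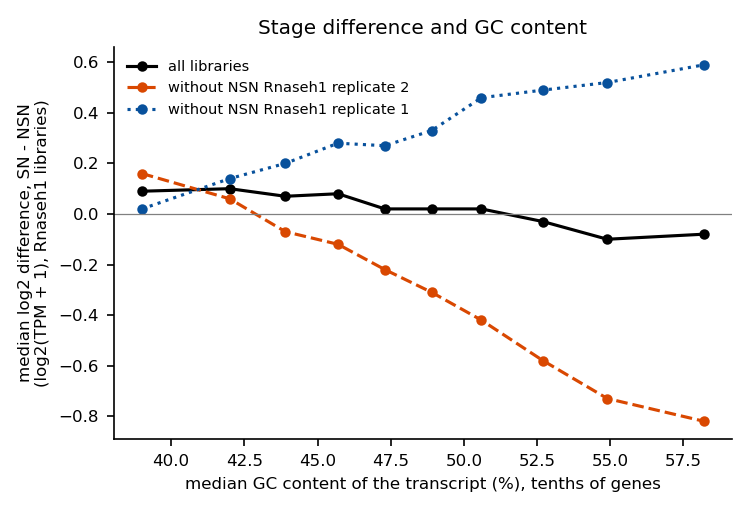
Median SN minus NSN difference on the log2(TPM + 1) scale (vertical axis) in 10 equal bins of genes ordered by transcript GC content in percent (horizontal axis), for all libraries and without either NSN Rnaseh1 replicate. The line without NSN replicate 2 ends at -0.82 in the bin richest in GC, and the line without NSN replicate 1 ends at 0.59.

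Among genes higher in SN oocytes with Rnaseh1, the 12 with the smallest p were set by both SN Rnaseh1 libraries standing above all 6 other libraries of the table. limma's adjusted p was 0.41 to 0.83, so that 0 of the 12 passed, and their differences ranged from 1.41 to 2.69 on the log2 scale. Mcmbp (ENSMUSG00000048170.14, chromosome 7, 128696441 to 128740495), which binds the MCM replication helicase, stood at 21.9 and 29.7 TPM in NSN and 157 and 184 TPM in SN libraries. With mCherry it lay at 19.8 and 18.9 TPM in NSN and 16.9 and 23.6 TPM in SN. Only the 2 SN Rnaseh1 libraries were high, at 6.61 times the NSN mean. The log2 difference was 2.69 (SE 0.36, adjusted p = 0.41), and it was 2.90 without NSN replicate 2 and 2.48 without NSN replicate 1.

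Copb1, the beta subunit of the COPI coat of Golgi vesicles, stood at 296 and 339 TPM in NSN and 990.4 and 1436 TPM in SN libraries. Its 4 mCherry libraries lay between 252 and 298 TPM. The log2 difference with Rnaseh1 was 1.91 (SE 0.32, adjusted p = 0.83). Mapk8, the stress kinase JNK1, stood at 40.1 and 33.1 TPM in NSN and 150 and 120.0 TPM in SN libraries, against 20.1 to 32.7 TPM with mCherry. Its log2 difference was 1.85 (SE 0.33, adjusted p = 0.83). For both genes the SN Rnaseh1 libraries did not overlap any other group.

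Serbp1, a ribosome-associated RNA-binding protein, stood at 152 and 110.2 TPM in NSN and 432 and 557 TPM in SN libraries, a log2 difference of 1.91. Rbm17, a splicing factor, stood at 224 and 273 TPM against 782 and 959 TPM, a difference of 1.80. Myef2, an RNA- and DNA-binding repressor, stood at 9.74 and 7.75 TPM against 56.9 and 52.3 TPM, a difference of 2.52. Rbm17 also stood higher in 1 control library, SN mCherry replicate 2, at 519 TPM against 260 to 273 TPM in the other 3.

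The mitochondrial ribosomal protein Mrps22 was the most abundant of the 12, at 715 and 570 TPM in NSN and 1611 and 1786 TPM in SN libraries, a log2 difference of 1.41. Cyct, the testis form of cytochrome c, stood at 24.4 and 33.1 TPM against 108 and 147 TPM. The remaining 4 were Ebag9, Slf1, which brings the SMC5/6 complex to damaged DNA, Rdh10, a retinol dehydrogenase, and Llph, a nucleolar protein, with differences of 1.41 to 1.98. Of these Llph was the one whose SN libraries also lay above NSN with mCherry, at 64.2 and 83.3 TPM against 49.9 and 52.5 TPM. Without NSN replicate 2, the 12 differences ranged from 1.25 to 2.90. The genes were chosen for groups that did not overlap, so leaving out a library could not change their direction.

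Over all genes tested, 805 (6.32%) had both SN Rnaseh1 libraries above the other 6 and 526 (4.13%) had both below. Of the 283 genes at an unadjusted p under 0.05 and higher in SN, 218 belonged to the first set. These counts use the same libraries as the comparison itself. The 283 genes had a median GC content of 44.9% and a median mean level of 25.1 TPM, against 48.1% and 8.80 TPM for all genes tested. For the 301 genes lower in SN these values were 46.5% and 3.16 TPM. Gene models made up 29.9% of the 301, against 16.3% of all genes tested.

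**Figure D3:**
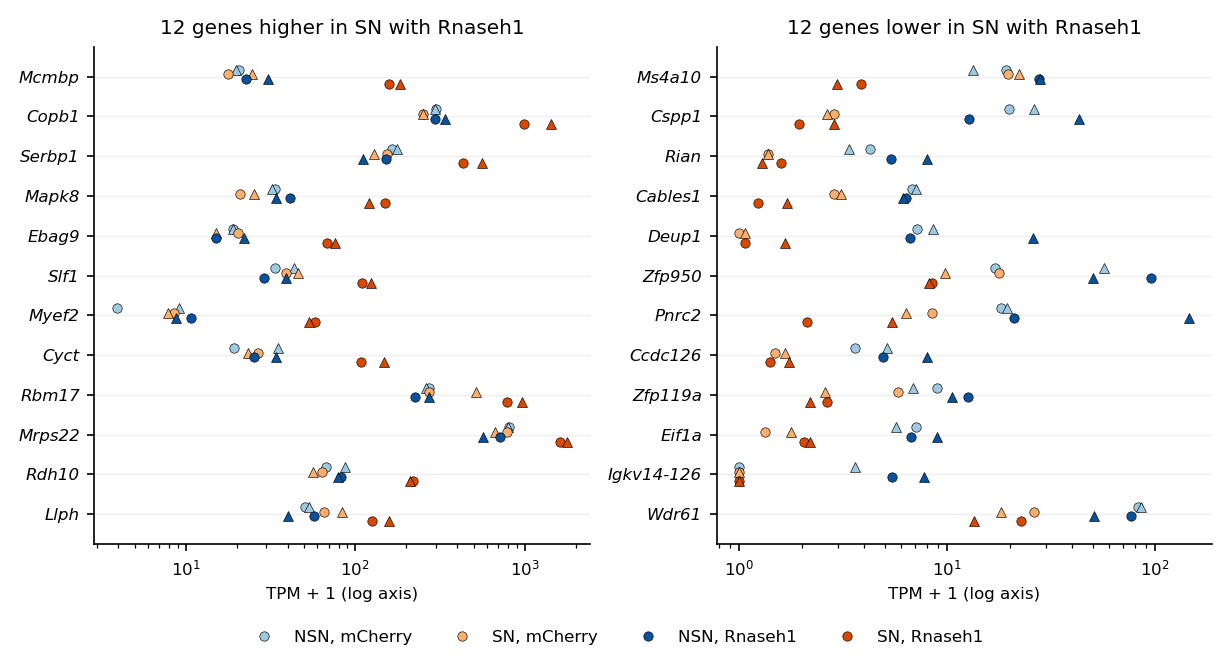
TPM + 1 (log axes) of the 24 genes described, 12 per direction, by group colour, with replicate 1 as circles and replicate 2 as triangles. On the left both SN Rnaseh1 libraries lie above the other 6 libraries for all 12 genes, and on the right the SN mCherry libraries lie below the NSN mCherry libraries for 9 of the 12.

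The 12 genes with the smallest p in the other direction were mostly low genes, and most were lower in SN with mCherry as well. Cspp1 (ENSMUSG00000056763.16, chromosome 1, 10037987 to 10136768), a centrosome and spindle pole protein, stood at 11.8 and 41.8 TPM in NSN and 0.94 and 1.87 TPM in SN libraries with Rnaseh1. With mCherry it stood at 18.8 and 25.1 TPM in NSN and 1.85 and 1.65 TPM in SN. The log2 differences were -3.31 (SE 0.62, adjusted p = 0.83) and -3.05. Deup1, which builds the deuterosome on which cilia-bearing cells multiply centrioles, stood at 5.62 and 24.8 TPM against 0.07 and 0.66 TPM with Rnaseh1, and at 6.15 and 7.54 TPM against 0 and 0.07 TPM with mCherry. For both genes all 4 SN libraries lay below all 4 NSN libraries.

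Wdr61, a subunit shared by the PAF1 elongation complex and the SKI complex of RNA decay, stood at 75.8 and 49.5 TPM in NSN and 21.7 and 12.5 TPM in SN libraries, a log2 difference of -1.83. With mCherry it was at 81.4 and 84.8 TPM against 25.2 and 17.2 TPM, a difference of -1.94. Pnrc2, which links nonsense-mediated decay to decapping, stood at 20.1 and 145 TPM against 1.13 and 4.42 TPM, and its value of -4.03 rested in part on NSN replicate 2, being -2.63 without it. With mCherry it stood at 17.1 and 18.4 TPM against 7.41 and 5.33 TPM. Cables1, a regulator of cyclin-dependent kinases, stood at 5.34 and 5.11 TPM against 0.23 and 0.70 TPM. The imprinted noncoding RNA Rian stood at 4.34 and 6.97 TPM against 0.59 and 0.29 TPM. Eif1a, a translation initiation factor, was at 5.73 and 7.96 TPM against 1.04 and 1.18 TPM, and near-identical copies make its values uncertain.

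Ms4a10, of the membrane-spanning 4A family, had the smallest p of the 24 genes and a different pattern. It stood at 26.7 and 26.8 TPM in NSN and 2.84 and 1.95 TPM in SN libraries with Rnaseh1, a log2 difference of -3.04 (SE 0.39, adjusted p = 0.41). With mCherry it stood at 18.3 and 12.3 TPM in NSN and 18.5 and 21.2 TPM in SN. Only the 2 SN Rnaseh1 libraries were low. The zinc finger gene Zfp950, at 94.8 and 49.1 TPM against 7.49 and 7.20 TPM, overlapped between the stages with mCherry, where NSN replicate 1 stood at 16.1 TPM and SN replicate 1 at 16.7 TPM. The immunoglobulin segment Igkv14-126 was listed at 0 in both SN Rnaseh1 libraries and stood at 4.41 and 6.70 TPM in NSN. Ccdc126 and Zfp119a, at -2.01 and -2.26, completed the 12. Without NSN replicate 2 the values of the other 11, Igkv14-126 apart, ranged from -3.52 to -1.65.

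The fit without NSN replicate 2 brought up other genes, which showed how far the NSN replicates parted. Of the 584 genes at an unadjusted p under 0.05 with all libraries, 0 changed direction without NSN replicate 2. Both fits use the same SN libraries and NSN replicate 1, so this agreement is largely built in. Mcmbp, Copb1, Ebag9 and Ms4a10 were among the genes with the smallest p in both fits. Trappc6b, a subunit of the TRAPP vesicle tethering complex, stood at 211 and 429 TPM in NSN and 702 and 750 TPM in SN libraries. Its difference was 1.27 with all libraries and 1.78 without NSN replicate 2 (adjusted p = 0.36 in limma). Tspan3, a tetraspanin, stood at 122 and 32.2 TPM in NSN and 19.6 and 22.6 TPM in SN libraries, with differences of -1.53 and -2.48.

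For the other genes of that fit NSN replicate 2 lay at or near the SN level, or beyond it. The noncoding transcript Snhg14, which runs antisense through Ube3a, stood at 0.83 and 79.0 TPM in the NSN replicates and 93.0 and 113 TPM in SN. Pagr1a, of the H3K4 methyltransferase complexes, was listed at 0 in NSN replicate 1, at 17.3 TPM in NSN replicate 2 and at 21.5 and 22.5 TPM in SN. Pyruvate carboxylase (Pcx) stood at 12.9 and 0.17 TPM in NSN against 0.09 and 0.40 TPM in SN. The proteasome gene Psmd13 stood at 9.49 TPM in NSN replicate 1, was listed at 0 in NSN replicate 2 and stood at 0.20 and 0.15 TPM in SN. The gastrin gene Gast stood at 8.80 and 1.46 TPM in NSN and was listed at 0 in both SN libraries. Exosc4, of the RNA exosome, stood at 110 and 2.60 TPM in NSN against 25.5 and 26.6 TPM in SN, so that its value of 0.44 became -2.03 without NSN replicate 2 and 2.91 without NSN replicate 1.

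The same stage comparison in mCherry oocytes shares no library with the Rnaseh1 comparison, only the estimate of the spread. With mCherry limma called 0 genes, with a smallest adjusted p of 0.25 and 328 genes at an unadjusted p under 0.05. These were 53 genes higher (0.416%) and 275 lower (2.16%) in SN. The libraries did not overlap for 1074 genes higher in SN (8.43%) and 2425 lower (19%). Of the 301 genes at an unadjusted p under 0.05 and lower in SN with Rnaseh1, 162 (53.8%) had both SN mCherry libraries below both NSN mCherry libraries, beside that background of 19%. In 24 (7.97%) both lay above. Both comparisons had an unadjusted p under 0.05 and a lower value in SN for 82 genes. They are 27.2% of the Rnaseh1 list and 29.8% of the mCherry list, beside 2.16% and 2.36% of all genes. A gene with a small shared spread can reach such a p in both comparisons, so overlap above these shares is partly built in. Of the 301, 5 (1.66%, beside 0.416% of all genes) had such a p and a higher value in SN with mCherry.

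Of the 283 genes higher in SN with Rnaseh1, 40 (14.1%) had both SN mCherry libraries above both NSN mCherry libraries, beside the background of 8.43%, and 55 (19.4%) had both below. Their median mCherry difference was -0.05, against -0.61 for the 301 lower genes and -0.03 for all genes. An unadjusted p under 0.05 and a higher value in SN in both comparisons were found for 3 genes. They are 1.06% of the Rnaseh1 list and 5.66% of the mCherry list, beside 0.416% and 2.22% of all genes. More of the 283, 5 genes (1.77%, beside 2.16% of all genes), had such a p and a lower value in SN with mCherry. The shared spread bears on these counts too. With SN mCherry replicate 2 left out, SN mCherry replicate 1 lay below both NSN mCherry libraries for 200 of the 301 (66.4%), beside 52.5% of all genes. It lay above both for 80 of the 283 (28.3%), beside 23.2%. Across all genes the 2 stage differences correlated at r = 0.15 and rho = 0.09 with all libraries, and at r = -0.01 and rho = -0.07 without NSN Rnaseh1 replicate 2. Without SN mCherry replicate 2 as well, the values were 0.33 and 0.37. These are descriptions over 12736 genes of the same libraries.

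**Figure D4:**
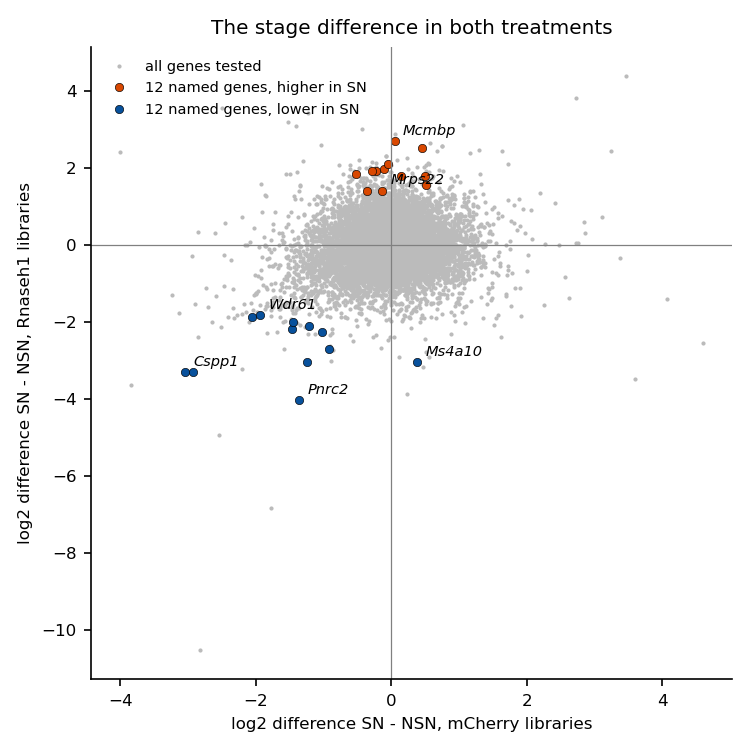
SN minus NSN difference on the log2(TPM + 1) scale with Rnaseh1 (vertical axis) against that with mCherry (horizontal axis) for the 12736 genes tested, with the 24 genes described above in colour. The 12 lower genes lie to the left of 0 with mCherry, Ms4a10 (0.38) apart, and the 12 higher genes lie around 0, between -0.52 and 0.51.

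All 4 SN libraries lay below all 4 NSN libraries for 324 genes (2.54% of those tested) and above them for 90 (0.707%). The numbers were 350 and 104 after median centring, 276 and 149 after quantile normalization and 329 and 95 of 12360 genes after removal of the GC trend. Leaving out NSN Rnaseh1 replicate 2 gave 910 and 169, leaving out SN mCherry replicate 2 gave 613 and 289, and leaving out both gave 3658 and 857, with fewer libraries to satisfy in each. The genes named next are from the 10 per direction with the largest mean difference and were chosen after their values were seen.

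The lower set held Cspp1, Deup1 and Pnrc2, described above, and 7 others. Herpud1, which helps pull misfolded proteins out for degradation, stood at 7.08 and 2.47 TPM in NSN and was listed at 0 in both SN libraries with Rnaseh1. With mCherry it stood at 8.58 and 5.85 TPM in NSN and 0 and 0.25 TPM in SN. Selenos, a selenoprotein of the endoplasmic reticulum membrane, stood at 12.9 and 5.88 TPM against 1.50 and 2.30 TPM with Rnaseh1, and at 19.8 and 20.6 TPM against 2.39 and 0.71 TPM with mCherry. Ldhc, the germ-cell lactate dehydrogenase, stood at 33.1 and 21.1 TPM against 5.66 and 7.33 TPM with Rnaseh1, and at 35.5 and 38.6 TPM against 3.39 and 10.6 TPM with mCherry. The cytoskeletal scaffold gene Iqgap1, the syntenin gene Sdcbp2, the guanylate-binding protein gene Gbp7 and the RNA kinase gene Clp1 completed the 10, with Rnaseh1 differences of -1.83 to -1.60.

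The set higher in all 4 SN libraries was led by Hist1h2ba, a histone H2B of the germ line. It stood at 5.38 and 0 TPM in NSN and 15.6 and 10.1 TPM in SN libraries with Rnaseh1, and at 0 and 2.07 TPM against 19.7 and 12.5 TPM with mCherry. The prolactin receptor gene Prlr stood at 4.96 and 2.98 TPM against 9.67 and 11.0 TPM with Rnaseh1, and Lpgat1, a phospholipid acyltransferase, at 18.9 and 16.4 TPM against 38.4 and 42.3 TPM. Zcchc8, of the nuclear exosome targeting complex, was at 28.8 and 10.8 TPM against 47.3 and 33.3 TPM. Others were Pagr1a and Llph, described above, with LTO1, Phf11d and Zmym1.

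Whether a stage difference was larger with Rnaseh1 than with mCherry was tested directly. limma called 0 genes, with a smallest adjusted p of 1 and 288 at an unadjusted p under 0.05, of which 187 (1.47%) were higher and 101 (0.793%) lower with Rnaseh1. No stage difference can therefore be called particular to Rnaseh1 oocytes. Without NSN Rnaseh1 replicate 2 an unadjusted p under 0.05 was found for 2.32% of genes higher and 3.97% lower with Rnaseh1. In that fit 1 gene was called (0.00785%), the short gene model Gm10226, at 33.3 TPM in NSN Rnaseh1 replicate 1 and listed at 0 in both SN Rnaseh1 libraries. It was also listed at 0 in both NSN mCherry libraries and in the NSN Rnaseh1 replicate left out, and stood at 30.9 and 17.4 TPM in SN mCherry. The values below describe the genes with the smallest p, whose adjusted p was 1.

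Cdkn1c, a maternally expressed brake on the cell cycle, stood at 2.71 and 3.26 TPM in NSN and 12.02 and 9.24 TPM in SN libraries with Rnaseh1. With mCherry the order was the other way, at 8.49 and 6.80 TPM in NSN and 2.10 and 2.70 TPM in SN. The stage differences were 1.54 and -1.35. Mcmbp, Copb1, Serbp1 and Mapk8 were the other 4 genes higher with Rnaseh1, all with SN mCherry levels within the range of the NSN libraries or below it. In the other direction, beside Ms4a10, Ppcdc, an enzyme of coenzyme A synthesis, stood at 3.50 and 2.08 TPM against 1.24 and 0.31 TPM with Rnaseh1 and at 1.88 and 4.84 TPM against 14.5 and 14.1 TPM with mCherry. The pseudophosphatase gene Styx stood at 13.8 and 25.6 TPM against 3.81 and 0.73 TPM with Rnaseh1 and at 3.17 and 9.32 TPM against 8.52 and 8.23 TPM with mCherry. Ccl1 and the T cell receptor segment Trav3d-3 completed this set, with stage differences of -1.27 and -1.86 with Rnaseh1 and 1.69 and 0.26 with mCherry.

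Lists of genes with known roles were described by counts and medians, and 0 members of the 25 lists with at least 5 genes tested passed over all genes. The median of 22 of the 25 lists was below 0 without NSN replicate 2 and above 0 without NSN replicate 1. Set against the median of all genes in the same fit, 17 lists still changed side, 14 from below to above and 3 from above to below. The maternal mRNA storage, m6A, imprinted and R-loop lists lay above all genes in both cases, and the elongation factors, the maternal-effect genes and the oocyte markers below. Counts of members whose libraries did not overlap are given below as shares of the list, to be read beside 14.1% higher and 12.5% lower over all genes tested. Counts without NSN replicate 2 are to be read beside 25.2% and 53.8%. Members at an unadjusted p under 0.05 in limma are to be read beside 2.22% higher and 2.36% lower over all genes tested.

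**Figure D5:**
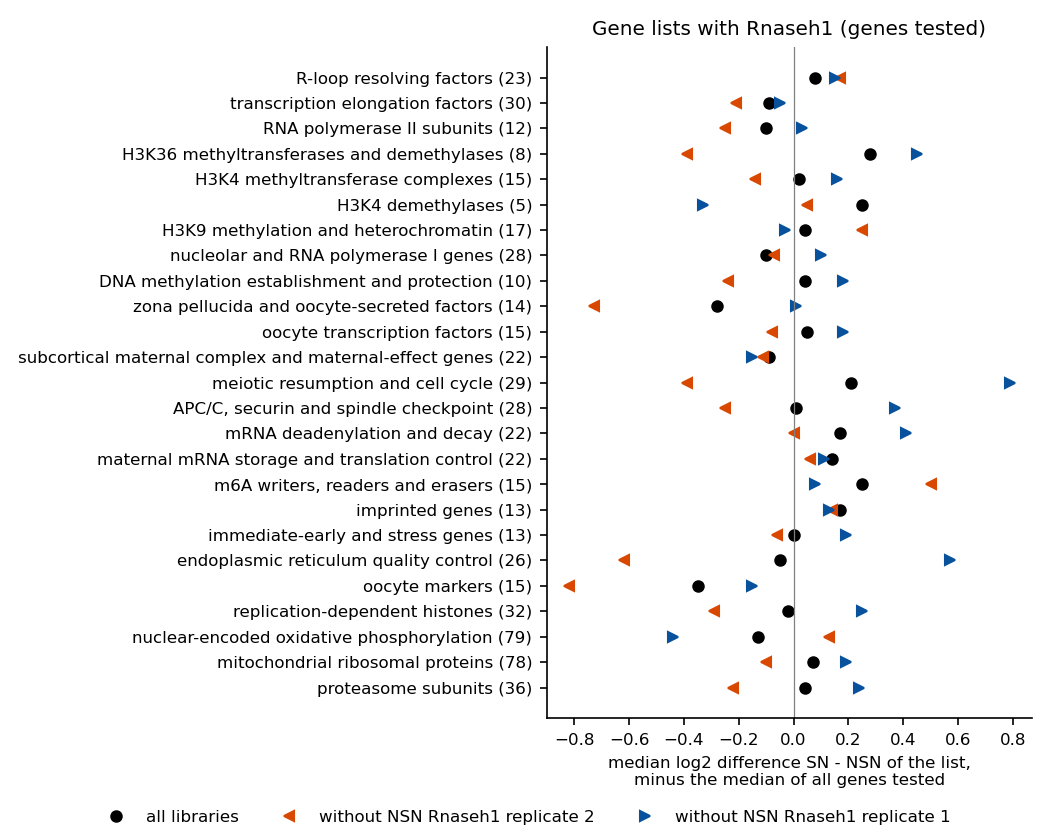
Median SN minus NSN difference (log2(TPM + 1) scale) of each gene list minus that of all genes tested, with all libraries and without either NSN Rnaseh1 replicate. The meiotic genes (29 tested) lie at 0.21 with all libraries, -0.39 without NSN replicate 2 and 0.79 without NSN replicate 1.

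Among the 23 tested factors that resolve R-loops, Rnaseh1, the gene overexpressed, was the member with an unadjusted p under 0.05. The libraries did not overlap for 6 higher (26.1%) and 3 lower members (13.0%), beside 14.1% and 12.5% of all genes. The median was 0.10, against 0.02 for all genes. Rnaseh1 itself is among the 6 and in the median, so these values do not describe the oocyte's own genes alone. Top1, the topoisomerase that relaxes supercoils behind the polymerase, stood at 68.1 and 53.4 TPM in NSN and 92.2 and 95.3 TPM in SN libraries, a difference of 0.63. Ddx5, a helicase that unwinds RNA:DNA hybrids, stood at 91.9 and 117 TPM against 55.6 and 72.9 TPM, a difference of -0.69, and at -0.73 with mCherry. Xrn2, the exonuclease of transcription termination, overlapped between the groups, at 24.9 and 10.8 TPM against 41.6 and 24.6 TPM.

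The 30 elongation factors had a median of -0.07, with 8 members higher (26.7%) and 5 lower (16.7%) without overlap, beside 14.1% and 12.5% of all genes. Without NSN replicate 2, 9 stood higher (30.0%) and 19 lower (63.3%). Beside Wdr61, an unadjusted p under 0.05 was found for Rtf1 and Supt16. Rtf1, of the PAF1 complex, stood at 6.94 and 5.40 TPM in NSN and 32.1 and 12.5 TPM in SN libraries, a difference of 1.57. Supt16, the large subunit of the histone chaperone FACT, stood at 14.1 and 6.95 TPM against 22.3 and 20.1 TPM, a difference of 1.01 that was 0.55 without NSN replicate 2. Eaf1, a partner of the elongation factor ELL, stood at 2.63 and 2.50 TPM against 1.05 and 0.91 TPM. The 12 RNA polymerase II subunits had a median of -0.08, with 0 members at an unadjusted p under 0.05.

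Among enzymes of histone H3 methylation 0 members of the lysine 36 and lysine 4 lists had an unadjusted p under 0.05. The 8 lysine 36 enzymes had a median of 0.30 that became -0.68 without NSN replicate 2. Setd2, which places the trimethyl mark behind elongating polymerase, overlapped between the groups at 57.9 and 35.5 TPM in NSN and 50.7 and 30.1 TPM in SN. Nsd3 stood at 7.73 and 2.34 TPM against 8.88 and 8.70 TPM. Among the lysine 4 demethylases Kdm5a stood at 8.30 and 25.8 TPM in NSN and 58.4 and 49.3 TPM in SN, a difference of 1.79 (adjusted p = 1 in limma). With mCherry Kdm5a stood at 5.94 and 11.4 TPM in NSN and 39.7 and 7.11 TPM in SN, so that the SN mCherry replicates parted. Kdm1b, which clears the mark when maternal imprints are set, stood at 121 and 227 TPM against 97.3 and 108 TPM.

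Of 17 genes of lysine 9 methylation and heterochromatin, the heterochromatin protein gene Cbx3 had an unadjusted p under 0.05. It stood at 12.5 and 34.4 TPM in NSN and 3.03 and 5.15 TPM in SN libraries with Rnaseh1, and at 4.80 and 11.4 TPM against 1.21 and 0 TPM with mCherry. Its relative Cbx5 stood at 23.0 and 18.6 TPM against 35.7 and 45.7 TPM with Rnaseh1. The 28 nucleolar and RNA polymerase I genes had a median of -0.07, with Rrn3, an initiation factor of RNA polymerase I, at 52.3 and 35.2 TPM against 79.9 and 112 TPM.

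The median of the oocyte markers moved with the NSN library used as reference. The 15 oocyte markers had a median of -0.33, with 1 higher (6.67%) and 5 lower (33.3%) without overlap, beside 14.1% and 12.5% of all genes. The median became -1.11 without NSN replicate 2 and 0.18 without NSN replicate 1. Set against the median of all genes in the same fit, these values were -0.82 and -0.15, so the markers lay below in both. Zp3, a zona pellucida glycoprotein gene chosen after its values were seen, stood at 2795 and 328 TPM in the NSN replicates and 547 and 695 TPM in SN. Ddx4, the germ-line helicase Vasa, was the marker with an unadjusted p under 0.05. It stood at 29.7 and 22.6 TPM in NSN and 9.41 and 9.56 TPM in SN libraries with Rnaseh1, and at 33.6 and 30.5 TPM against 9.80 and 15.0 TPM with mCherry. Its difference was -1.36 with Rnaseh1, -1.55 without NSN replicate 2 and -1.33 with mCherry.

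The maternal growth factor gene Bmp15 stood at 1125 and 1248 TPM in NSN against 896 and 990 TPM in SN, a difference of -0.33. Tbpl2, the oocyte form of the TATA-binding protein, stood at 28.9 and 35.9 TPM against 20.4 and 15.3 TPM, a difference of -0.83, and at -1.09 with mCherry. Of the 22 maternal-effect genes 0 were higher and 2 lower (9.09%) without overlap, near or below the 14.1% and 12.5% of all genes, with Nlrp5 at 434 and 236 TPM against 181 and 223 TPM.

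The 29 genes of meiotic resumption had 2 members higher (6.90%) and 1 lower (3.45%) without overlap, both below the 14.1% and 12.5% of all genes. Bora, an activator of Aurora A, stood at 39.3 and 41.4 TPM in NSN and 62.9 and 67.2 TPM in SN libraries. Mastl, the Greatwall kinase, stood at 347 and 311 TPM against 573 and 407 TPM, and Wee1, the kinase that holds CDK1 inactive, at 10.9 and 7.77 TPM against 5.40 and 5.18 TPM. Wee1 was lower in SN with mCherry too, at -1.18. Ccnb1, the cyclin of CDK1, overlapped at 1087 and 414 TPM against 832 and 1287 TPM. Among 28 genes of the anaphase-promoting complex and its checkpoint, Sgo2a, the protector of centromere cohesion, stood at 11.1 and 8.57 TPM against 15.7 and 21.4 TPM.

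Among 22 genes of mRNA storage and translation control, 7 were higher (31.8%) and 3 lower (13.6%) without overlap, beside 14.1% and 12.5% of all genes, and the median was 0.16. Without NSN replicate 2, 8 stood higher (36.4%) and 12 lower (54.5%). Ybx1, a cold-shock protein that coats stored mRNA, stood at 48.7 and 44.6 TPM in NSN and 90.2 and 116 TPM in SN libraries, a difference of 1.12 that was 1.05 without NSN replicate 2. Among 15 m6A writers, readers and erasers, 5 were higher (33.3%) and 2 lower (13.3%), and the median of 0.27 was 0.22 without NSN replicate 2 and 0.41 without NSN replicate 1. Of the 15, 0 had an unadjusted p under 0.05 and a higher value in SN, and 1 had such a p and a lower value. The subunits of the writer's core stood higher in SN, without such a p. Mettl3 was at 99.8 and 89.7 TPM against 161 and 170 TPM and Mettl14 at 13.6 and 7.78 TPM against 23.7 and 19.4 TPM. Cbll1, another subunit of the writer complex, stood at 8.58 and 10.2 TPM against 3.54 and 5.18 TPM, and at -1.46 with mCherry. Of 22 deadenylation and decay genes 3 were higher (13.6%), near the share of all genes, and 0 lower, and without NSN replicate 2, 6 stood higher (27.3%) and 11 lower. Cnot4, a ubiquitin ligase of the deadenylase complex, stood at 30.4 and 26.5 TPM against 46.3 and 48.4 TPM.

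The endoplasmic reticulum list (26 tested) had 2 members higher (7.69%) and 5 lower (19.2%) without overlap, beside 14.1% and 12.5% of all genes, and the widest span of the lists named here. Its median was -0.03 with all libraries, -0.90 without NSN replicate 2 and 0.91 without NSN replicate 1. Beside Herpud1 and Selenos, the stress sensor gene Eif2ak3 (PERK) had an unadjusted p under 0.05, at 4.34 and 6.10 TPM in NSN and 11.6 and 16.9 TPM in SN. With mCherry Eif2ak3 was at 4.15 and 6.11 TPM against 2.36 and 3.68 TPM. Among 13 imprinted genes Cdkn1c, above, and Impact had an unadjusted p under 0.05. Rian, described above, is not in that list. Impact stood at 2.85 and 7.09 TPM against 0.67 and 0.93 TPM and the noncoding RNA Meg3 at 3.39 and 6.08 TPM against 2.54 and 0.07 TPM. The 32 replication-dependent histones had 4 higher (12.5%) and 4 lower members (12.5%) and a median of 0.00. Hist1h2ap stood at 26.8 and 12.8 TPM against 5.84 and 0 TPM, and near-identical copies make these values uncertain.

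Of the 79 nuclear genes of oxidative phosphorylation, 3 were higher (3.80%) and 11 lower (13.9%) without overlap, the second near the 12.5% of all genes, with a median of -0.10. Cox5a, of cytochrome c oxidase, was the member with an unadjusted p under 0.05, at 1027 and 761 TPM in NSN and 1681 and 1490.0 TPM in SN. Ndufa1, of NADH dehydrogenase and among the most abundant members, stood at 1923 and 7697 TPM in the NSN replicates and 3566 and 2594 TPM in SN. Of 78 mitochondrial ribosomal proteins 12 were higher (15.4%), near the 14.1% of all genes, and 4 lower (5.13%), and without NSN replicate 2, 27 stood higher (34.6%) and 47 lower (60.3%). Beside Mrps22, Mrpl23 stood at 64.0 and 67.5 TPM against 38.7 and 36.3 TPM, and Mrps34 at 4.79 and 1.43 TPM against 0.27 and 0 TPM. Of 36 proteasome subunits 5 were higher (13.9%), near the share of all genes, and 0 lower, and without NSN replicate 2, 8 stood higher (22.2%) and 24 lower (66.7%). The core subunit gene Psma7 stood at 2696 and 1001 TPM against 3250.2 and 3604 TPM.

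The 5 most abundant genes differed more between the NSN replicates than between the stages, Elobl apart. Dppa3, which protects the maternal genome from demethylation, stood at 9862 and 21364 TPM in NSN and 15522 and 14324 TPM in SN. Omt2b stood at 7362 and 16944 TPM against 13821 and 13461 TPM, and Pttg1, securin, at 8045 and 11968 TPM against 10764 and 12078 TPM. Elobl stood at 12404 and 11677 TPM in NSN and 10898 and 9500.0 TPM in SN. For Dppa3, Omt2b and Gm813, but not for Elobl and Pttg1, both SN libraries lay between the 2 NSN libraries.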

How the data were processed

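The deposited values are TPM per gene, made by the authors with tools whose roles are not given in the sources used here. Named, per the submitters' processing notes, are RSEM 1.3.3, Trim Galore 0.6.7, DESeq2, STAR 2.7.0d and genome build mm10. The read depth behind a TPM value is unknown, so no counting error is given. Strand use is not stated. Coordinates and transcript GC content came from GENCODE M21 (GRCm38), which held 34611 of the 35389 identifiers. Symbols were found for 35319 identifiers in a list of gene names, by identifier with or without its version, or in RefSeq. Neither mitochondrial genes nor reads were examined.

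log2(TPM + 1) values of all 8 libraries entered 1 fit in limma 3.58.1 (R 4.3.3), with 4 group means and a shared spread (4 residual degrees of freedom, eBayes with a trend). Tests were two-sided, with Benjamini-Hochberg adjustment over 12736 genes and a threshold of 0.05. Fold changes on this scale understate the change of low genes. The filter took 209 genes whose second-highest TPM was 1 to 1.1 and left out 261 at 0.9 to 1. Of the genes tested, 1428 were at 1 TPM or above in fewer than 2 of the 4 Rnaseh1 libraries. The p-values measure the spread between libraries, which may be technical.

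The genes named were Rnaseh1, Supt6, the 12 per direction with the smallest p among genes whose groups did not overlap and whose higher group averaged at least 5 TPM, gene models left out, up to 6 per direction without NSN Rnaseh1 replicate 2, up to 4 members with the smallest p and 2 most abundant per list, the 5 most abundant genes, and up to 5 per direction for the difference of the stages. Genes outside this rule are marked as chosen after their values were seen, and Gm13008 is one of them. The comparison and lists were chosen with earlier results of these data known. Of the genes chosen after their values were seen, 1 is not reported here. The script was tested on simulated data. The alternatives were pseudocounts of 0.1 and 5, other filters and scalings, removal of a GC trend, robust or weighted fits, the replicate number as a block, a threshold of 0.1 and each library left out.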

Additional observations from a re-analysis of the deposited data

How the results depend on the processing

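With 2 libraries per group and 4 residual degrees of freedom, a gene needs a large difference to pass, and the direction of many values is set by the NSN Rnaseh1 library used as reference. The number of genes past the adjusted threshold was 0 under every alternative that kept all libraries, with 267 to 844 genes at an unadjusted p under 0.05 and smallest adjusted p-values from 0.18 to 1. It ranged from 0 to 102 over the fits that leave out 1 library, 102 without NSN Rnaseh1 replicate 1 and 1 without either SN mCherry library. That gene is the model Gm37750, at 839 and 2551 TPM in NSN Rnaseh1, listed at 0 in both SN Rnaseh1 libraries, and at 1998 and 0 TPM in SN mCherry. For the difference of the stages the range was 0 to 1. The cause of these changes was not tested.

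Genes at an unadjusted p under 0.05 and higher in SN numbered 283, and 173 with the 4 Rnaseh1 libraries alone, 149 with library weights and 123 to 1737 with 1 library left out. Lower genes numbered 301, and 143 under a filter of 5 TPM, which tests fewer genes, 200 with the 4 libraries alone, 118 with library weights and 127 to 1111 with 1 library left out. Without NSN Rnaseh1 replicate 2 the higher genes numbered 345, and 530 after median centring, 632 after quantile normalization and 803 without SN mCherry replicate 2 as well. The lower genes numbered 1111, and 678 after quantile normalization and 2576 without SN mCherry replicate 2 as well. The 4 libraries alone give no mCherry value.

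Of the 105 genes named besides Rnaseh1, 89 kept their sign in every setting, the 24 with the smallest p among them. Those 24 were chosen for groups that did not overlap, so leaving out a library could not change their sign. Of the 105, 8 passed the threshold in some setting, always without NSN Rnaseh1 replicate 1. Leaving out 1 library gave log2 differences of -0.88 to 0.61 for Supt6, -3.49 to 0.08 for Pcx, -3.16 to 0.23 for Psmd13, -2.03 to 2.91 for Exosc4, -0.52 to 0.60 for Dppa3, -0.31 to 0.89 for Omt2b, -0.85 to 0.55 for Gm813 and -0.07 to 0.50 for Pttg1. It gave -0.73 to 0.95 for Dpy30, -0.58 to 0.16 for Setd2, -1.24 to 0.93 for Npm2, -1.34 to 0.66 for Ndufa1, -0.51 to 1.57 for Psmb6 and -0.07 to 1.32 for Ccnb1. Dppa3 was at -0.03 after median centring and Elobl at 0.06 after quantile normalization. Without NSN Rnaseh1 replicate 2, median centring, quantile normalization and removal of the GC trend gave -1.79, -1.82 and -1.65 for Exosc4, 0.79, 0.29 and 0.19 for Gm813, 0.91, 0.57 and 0.59 for Ndufa1 and -0.27, -0.54 and -0.33 for Psmb6. In the same setting Kdm1b was at 0.01 after centring, and Ccnb1 at -0.10 with quantile normalization and -0.29 with the GC trend taken out.

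In a fit blocked on replicate number 0 genes passed and 206 higher and 235 lower genes had an unadjusted p under 0.05. The labels give the replicate numbers no shared source, and the replicate differences of the SN and NSN Rnaseh1 groups correlated at -0.07 across genes, so the numbers were not taken as a pairing.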
